A study of Mus musculus with 4 samples.

Results

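The 9 genes P2ry12, P2ry13, Gpr34, Cx3cr1, Selplg, Siglech, Fcrls, Tmem119 and Sall1 are widely used as markers of homeostatic microglia, the resting immune cells of the brain. They were chosen by name, and each matched 1 of the 32285 genes in the count matrices. Their unique molecular identifiers (UMIs, the tags that count single RNA molecules) were summed in microglia, taken as barcodes in which C1qa, C1qb, Ctss and Csf1r made up at least 0.5% of UMIs and at least 3 of these 4 genes were detected. The gate held 9524 of the 18182 barcodes that passed quality control in APOE4 LPS and 5559 of 15060 in APOE3 LPS, against 3449 of 13071 in APOE4 NaCl and 3898 of 14404 in APOE3 NaCl. The study profiled single cells of glia-enriched brain suspensions from male mice whose mouse Apoe gene is replaced by human APOE4 or APOE3 (labelled ApoE4 and ApoE3). LPS is a bacterial endotoxin that provokes acute inflammation, given here into the peritoneum at 5 mg/kg and followed by killing after 24 h, and the other mice of each genotype received NaCl. All 4 groups carry a human APOE gene, so none is a wild-type mouse, and each group is 1 library pooled from 3 mice. Nothing in the files assigns a cell to a mouse, and no age is given in the sources used here. With 1 library per group no difference was tested. Every interval below is a 95% interval that covers counting error only, not variation between mice, cells or library preparations.

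Homeostatic microglia survey the tissue with motile processes, and the 9 genes encode much of the surface with which they do so. P2ry12 and P2ry13 are receptors for ADP that guide processes toward damaged cells, Gpr34 is a receptor for lysophosphatidylserine, and Cx3cr1 is the receptor for neuronal fractalkine. Sall1 is a zinc-finger transcription factor that maintains microglial identity in mice, and most of these genes depend on TGF-beta signalling. Loss of this expression programme is a known feature of microglia activated by endotoxin.

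By the GENCODE M21 annotation of the mouse build GRCm38 (mm10), the genes lie on 6 chromosomes. P2ry12 (ENSMUSG00000036353, chr3:59216272-59262871, minus strand) and P2ry13 (ENSMUSG00000036362, chr3:59207892-59210882, minus strand) are neighbours, and both lie within Med12l, which runs on the other strand. Gpr34 (ENSMUSG00000040229, chrX:13632089-13640858, plus strand) lies within Cask, again on the other strand. Cx3cr1 (ENSMUSG00000052336, chr9:119901616-120069879, minus strand) has a long gene model that overlaps Gorasp1, Csrnp1 and Xirp1 on its own strand. Whether counting used strand is not given in the sources used here, so reads shared with these neighbours cannot be told apart. Med12l itself held 2306 UMIs in gated APOE4 LPS cells, 3829 for APOE3 LPS, 2842 for APOE4 NaCl and 3195 for APOE3 NaCl. Selplg (ENSMUSG00000048163, chr5:113818536-113832644) and Tmem119 (ENSMUSG00000054675, chr5:113793729-113800516) lie on the minus strand of one chromosome, Fcrls (ENSMUSG00000015852, chr3:87250758-87263738) and Sall1 (ENSMUSG00000031665, chr8:89027235-89044162) lie on the minus strand too, and Siglech (ENSMUSG00000051504, chr7:55768178-55778925) lies on the plus strand.

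Promoter windows of 300 bases, 250 before and 50 after a gene's start, were given by RefSeq on GRCm38.p6 for 6 of the 9 genes, namely P2ry12, P2ry13, Cx3cr1, Siglech, Fcrls and Sall1. Gpr34, Selplg and Tmem119 are named only. The windows were searched on both strands for GGAAGT, the core bound by ETS factors such as PU.1, the lineage factor of microglia. It occurred in 4 of the 8 windows of these genes, 1 window each of 4 genes, and in 23.8% of the 32851 windows of all genes. Sall1 has 3 windows and each other gene 1. The match began 51 bases before the start in P2ry12, 156 before in Siglech, 75 before in Fcrls and 180 before in Sall1. A loose form of the MEF2 element, read as CTA and TAG with any 4 bases between them, occurred in 1 of the 8 windows. It was that of Cx3cr1, as CTAAAGATAG, 67 bases before the start, and 3.69% of all windows held a match. Part of the NF-kB element, read as GGGA and CC with 4 bases between them, occurred in P2ry12, where it starts at the same base as GGAAGT and overlaps it, and in another window of Sall1, so in 2 of the 8 windows, and in 20.7% of all windows. The interferon regulatory element, read as GAAA repeated after 2 bases, occurred in 0 of the 8 and in 3.44% of all windows. A match describes letters in a window and not a bound site. The 4 windows below, of genes whose RNA was lower in LPS microglia, are shown 5′ to 3′ on the strand of the gene, with the match in capitals: GGAAGT or its reverse complement in P2ry12 (chr3:59262936-59263235), Siglech (chr7:55767934-55768233) and Fcrls (chr3:87263475-87263774), and the loose CTA and TAG pattern in Cx3cr1 (chr9:120068247-120068546).

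P2ry12: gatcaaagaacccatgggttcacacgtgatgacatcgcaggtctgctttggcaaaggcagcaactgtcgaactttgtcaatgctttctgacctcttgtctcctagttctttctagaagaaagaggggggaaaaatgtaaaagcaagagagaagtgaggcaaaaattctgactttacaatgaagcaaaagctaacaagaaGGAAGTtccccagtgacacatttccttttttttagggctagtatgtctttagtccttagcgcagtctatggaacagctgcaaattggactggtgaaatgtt

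Siglech: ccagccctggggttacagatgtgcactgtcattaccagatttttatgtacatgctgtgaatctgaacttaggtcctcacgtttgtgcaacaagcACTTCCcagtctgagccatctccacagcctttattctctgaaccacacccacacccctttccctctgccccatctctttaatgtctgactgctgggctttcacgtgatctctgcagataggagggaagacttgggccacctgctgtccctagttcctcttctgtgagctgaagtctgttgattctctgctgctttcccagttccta

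Fcrls: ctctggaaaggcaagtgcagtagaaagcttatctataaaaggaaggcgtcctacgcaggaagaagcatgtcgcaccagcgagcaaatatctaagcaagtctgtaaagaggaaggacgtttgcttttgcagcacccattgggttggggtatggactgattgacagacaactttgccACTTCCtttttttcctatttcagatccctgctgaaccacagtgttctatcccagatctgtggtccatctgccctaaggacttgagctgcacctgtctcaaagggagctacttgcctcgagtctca

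Cx3cr1: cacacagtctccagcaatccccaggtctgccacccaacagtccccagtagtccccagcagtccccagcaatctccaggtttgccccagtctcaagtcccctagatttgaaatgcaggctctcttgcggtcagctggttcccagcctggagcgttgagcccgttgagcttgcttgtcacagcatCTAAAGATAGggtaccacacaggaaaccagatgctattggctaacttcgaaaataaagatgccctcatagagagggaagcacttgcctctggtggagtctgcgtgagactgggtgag

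The APOE4 LPS library stood apart before any gene was compared. It had the most barcodes, 29361 against 14122 to 16078 in the other libraries, and the lowest median, 1292 UMIs per barcode against 3969 to 5640.5. Its gated cells had a median of 2025.5 UMIs, against 7737 (APOE3 LPS), 4683 (APOE4 NaCl) and 4408 (APOE3 NaCl), and its gated UMIs summed to 41284606, against 49877424 (APOE3 LPS), 18236493 (APOE4 NaCl) and 20158404 (APOE3 NaCl). Barcodes with at least 3 of 5 to 7 markers of another cell type made up 36.5% of its gated cells, against 21.1% for APOE3 LPS, 17.0% for APOE4 NaCl and 19.0% for APOE3 NaCl. Barcodes with 0.2 to 1% of UMIs from the 4 gate genes were 27.1% of its passing barcodes, against 3.31 to 4.28% elsewhere, so the gate had no clear lower edge there. Astrocyte markers summed to 925 UMIs per 1000000 UMIs of the gate (CPM) in its gate, against 595 for APOE3 LPS, 675 for APOE4 NaCl and 773 for APOE3 NaCl, and 4 of the 5 exceeded their APOE3 LPS level by 1.5-fold or more. No astrocyte marker was at 0 in any library. Their part in the results was not tested. The main results are therefore given also for a strict gate, added after the data were seen: gate genes at least 2% of UMIs, at least 2000 UMIs, and no 3 markers of another type. It kept 1325 APOE4 LPS cells (13.9% of the gate), 3518 APOE3 LPS cells (63.3%), 1144 APOE4 NaCl cells (33.2%) and 989 APOE3 NaCl cells (25.4%). Their median depths were 5558 UMIs in APOE4 LPS and 7233 in APOE3 LPS, against 4286.5 in APOE4 NaCl and 3919 in APOE3 NaCl. In it the astrocyte markers summed to 99.5 CPM in APOE4 LPS, 75.9 for APOE3 LPS, 62.4 for APOE4 NaCl and 83.7 for APOE3 NaCl. The libraries shared 61 to 140 barcodes per pair, and 3 to 11 of these were gated in both. The gate genes differed in direction with LPS. C1qa had 6310 CPM in APOE4 LPS and 9166 in APOE3 LPS, against 5528 in APOE4 NaCl and 5385 in APOE3 NaCl. C1qb had 5193 CPM in APOE4 LPS and 6610 in APOE3 LPS, against 4970 in APOE4 NaCl and 4547 in APOE3 NaCl. Ctss had 3253 CPM in APOE4 LPS and 4042 in APOE3 LPS, against 4460 in APOE4 NaCl and 3821 in APOE3 NaCl. Csf1r, the receptor on which microglia depend for survival, was lower with LPS in both genotypes: 1035 CPM in APOE4 LPS and 1499 in APOE3 LPS, against 1954 in APOE4 NaCl and 1986 in APOE3 NaCl.

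All 9 genes were at least 1.5-fold lower in LPS microglia than in NaCl microglia, in both genotypes. Over all measured genes (10 or more UMIs in either library) 14.7% were that much lower in APOE4 LPS and 10.6% in APOE3 LPS, and 15.1% and 8.4% were that much higher than in the NaCl library of the same genotype. The median log2 ratio of the 9 (log2 of CPM + 1) was -1.75 in APOE4 and -1.13 in APOE3, beside -0.001 and -0.09 over all genes. In the strict gate all 9 were again at least 1.5-fold lower, beside 15.7% of all genes in APOE4 and 13.7% in APOE3, with medians of -1.07 and -1.02, beside -0.07 and -0.08 over all genes. Summed over the 9 genes, gated cells held 3271 CPM in APOE4 LPS and 5052 in APOE3 LPS, against 11520 in APOE4 NaCl and 11010 in APOE3 NaCl. Strict cells held 5742 CPM in APOE4 LPS and 5976 in APOE3 LPS, against 12720 in APOE4 NaCl and 12560 in APOE3 NaCl. The order of the libraries was the same in both gates, while the gap of APOE4 LPS to APOE3 LPS and to APOE4 NaCl was narrower in the strict gate.

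Other measures of the gated cells also differed between LPS and NaCl in both genotypes. The median mitochondrial share of UMIs was 2.86% in APOE4 LPS and 2.74% in APOE3 LPS, against 1.5% in APOE4 NaCl and 1.31% in APOE3 NaCl. The 5 endothelial markers, none of them at 0 in a library, summed to 330 CPM in APOE4 LPS and 356 in APOE3 LPS, against 155 in APOE4 NaCl and 203 in APOE3 NaCl. The 5 monocyte markers, with Chil3 at 0 in at least 1 library, summed to 46.1 CPM in APOE4 LPS and 63.1 in APOE3 LPS, against 16.3 in APOE4 NaCl and 16.4 in APOE3 NaCl. In strict cells the endothelial sums were 36.7 CPM in APOE4 LPS and 29.1 in APOE3 LPS, against 35.3 in APOE4 NaCl and 32.7 in APOE3 NaCl. The strict monocyte sums were 9.51 CPM in APOE4 LPS and 26.2 in APOE3 LPS, against 5.54 in APOE4 NaCl and 5.25 in APOE3 NaCl. The part of the mitochondrial share and of the endothelial and monocyte markers in the results was not tested.

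**Figure D1:**
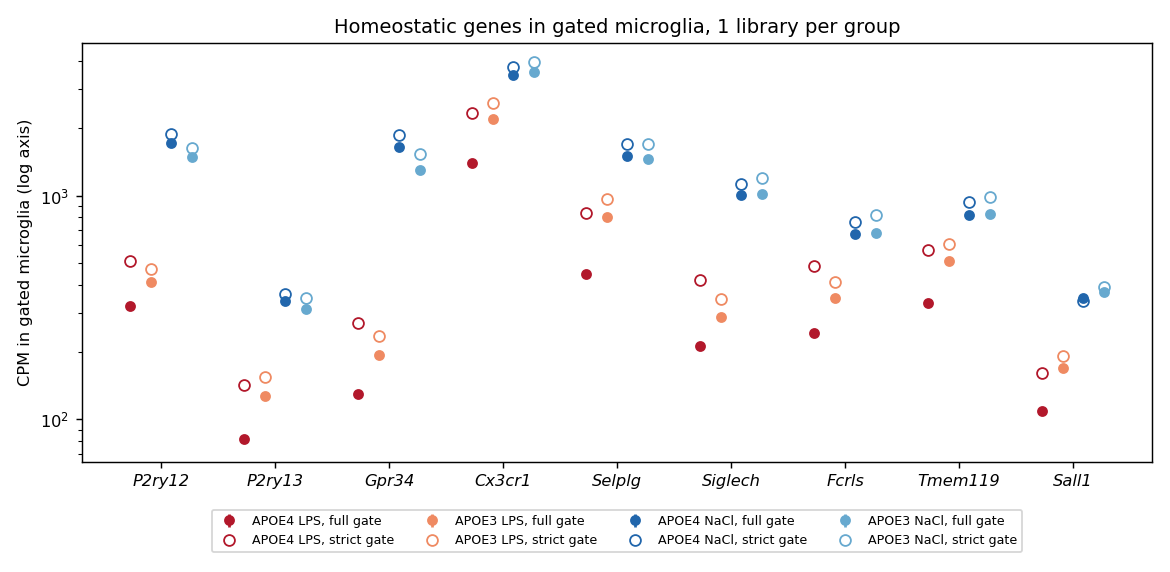
CPM of each gene in gated microglia (log axis), with filled points for the full gate and open points for the strict gate, 1 library per group and 95% Poisson intervals on the filled points that are mostly smaller than the symbols. For each of the 9 genes both LPS libraries lie below both NaCl libraries in either gate, and the APOE4 LPS point moves up most between the gates, as for Gpr34 from 130 to 270 CPM.

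P2ry12, P2ry13 and Gpr34 encode receptors for nucleotides and lysolipid. P2ry12, the ADP receptor that steers process extension, had 321 CPM in APOE4 LPS and 411 in APOE3 LPS, against 1720 in APOE4 NaCl and 1485 in APOE3 NaCl. It was 5.37-fold lower with LPS in APOE4 (5.26 to 5.48) and 3.62-fold lower in APOE3 (3.55 to 3.68). Strict cells gave 512 CPM in APOE4 LPS and 469 in APOE3 LPS, against 1883 in APOE4 NaCl and 1630 in APOE3 NaCl, with folds of 3.68 (3.55 to 3.82) and 3.48 (3.38 to 3.58) lower in APOE4 and APOE3. The LPS libraries lay far below the NaCl libraries either way, while their own order turned round between the gates. P2ry13, its neighbour and a second ADP receptor, had 81.4 CPM in APOE4 LPS and 127 in APOE3 LPS, against 337 in APOE4 NaCl and 311 in APOE3 NaCl. That is 4.14-fold lower (3.96 to 4.31) in APOE4 and 2.46-fold lower (2.38 to 2.55) in APOE3, and 2.56-fold and 2.25-fold in strict cells. P2ry13 was the smaller of the responses of the neighbouring pair in both genotypes and both gates.

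Gpr34, the lysophosphatidylserine receptor, had 130 CPM in APOE4 LPS and 193 in APOE3 LPS, against 1649 in APOE4 NaCl and 1297 in APOE3 NaCl. It was 12.7-fold lower with LPS in APOE4 (12.4 to 13.1) and 6.71-fold lower in APOE3 (6.56 to 6.87). In APOE4 only 2 of the 18131 measured genes had a lower ratio, and in APOE3 10 of 17909. Strict cells held 270 CPM in APOE4 LPS and 235 in APOE3 LPS, against 1865 in APOE4 NaCl and 1540 in APOE3 NaCl, which is 6.90-fold lower (6.59 to 7.23) in APOE4 and 6.56-fold lower (6.34 to 6.80) in APOE3. In strict cells the intervals of the genotypes overlapped.

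The adhesion and chemokine receptors differed by smaller factors. Cx3cr1, the fractalkine receptor, had 1397 CPM in APOE4 LPS and 2202 in APOE3 LPS, against 3464 in APOE4 NaCl and 3556 in APOE3 NaCl. It was 2.48-fold lower (2.45 to 2.51) in APOE4 and 1.62-fold lower (1.60 to 1.63) in APOE3, and in strict cells 1.59-fold (1.56 to 1.62) and 1.52-fold (1.49 to 1.54). In the strict gate Cx3cr1 thus lay close to the 1.5-fold limit in both genotypes. Selplg, which encodes the selectin ligand PSGL-1, had 448 CPM in APOE4 LPS and 805 in APOE3 LPS, against 1510 in APOE4 NaCl and 1462 in APOE3 NaCl. Its folds were 3.37 lower (3.31 to 3.43) in APOE4 and 1.82 lower (1.79 to 1.84) in APOE3, and 2.05 and 1.77 in strict cells.

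Siglech, a sialic acid-binding lectin of microglia and plasmacytoid dendritic cells in mice, had 212 CPM in APOE4 LPS and 286 in APOE3 LPS, against 1002 in APOE4 NaCl and 1013 in APOE3 NaCl. It was 4.74-fold lower (4.62 to 4.86) in APOE4 and 3.54-fold lower (3.46 to 3.61) in APOE3. Strict cells reversed the order of the genotypes, at 2.69-fold lower (2.58 to 2.80) in APOE4 and 3.45-fold lower (3.34 to 3.57) in APOE3. Fcrls, an Fc receptor-like scavenger receptor of mouse microglia, had 244 CPM in APOE4 LPS and 349 in APOE3 LPS, against 672 in APOE4 NaCl and 682 in APOE3 NaCl. Its folds were 2.76 lower (2.68 to 2.83) in APOE4 and 1.95 lower (1.91 to 1.998) in APOE3, and in strict cells 1.57 (1.51 to 1.64) and 1.995 (1.92 to 2.07). Both genes of immunoglobulin-type receptors therefore had the larger response in APOE4 in the full gate and in APOE3 in the strict gate.

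Tmem119, a membrane protein of unclear function that marks microglia, had 330 CPM in APOE4 LPS and 509 in APOE3 LPS, against 817 in APOE4 NaCl and 827 in APOE3 NaCl. It was 2.48-fold lower (2.42 to 2.53) in APOE4 and 1.63-fold lower (1.60 to 1.66) in APOE3, and 1.64-fold and 1.63-fold in strict cells. Sall1, the transcription factor of the group, had 109 CPM in APOE4 LPS and 170 in APOE3 LPS, against 349 in APOE4 NaCl and 372 in APOE3 NaCl. Its folds were 3.21 lower (3.09 to 3.34) in APOE4 and 2.19 lower (2.12 to 2.26) in APOE3, and 2.10 (1.956 to 2.26) and 2.03 (1.92 to 2.15) in strict cells. For both genes the strict folds of the genotypes lay within each other's intervals.

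**Figure D2:**
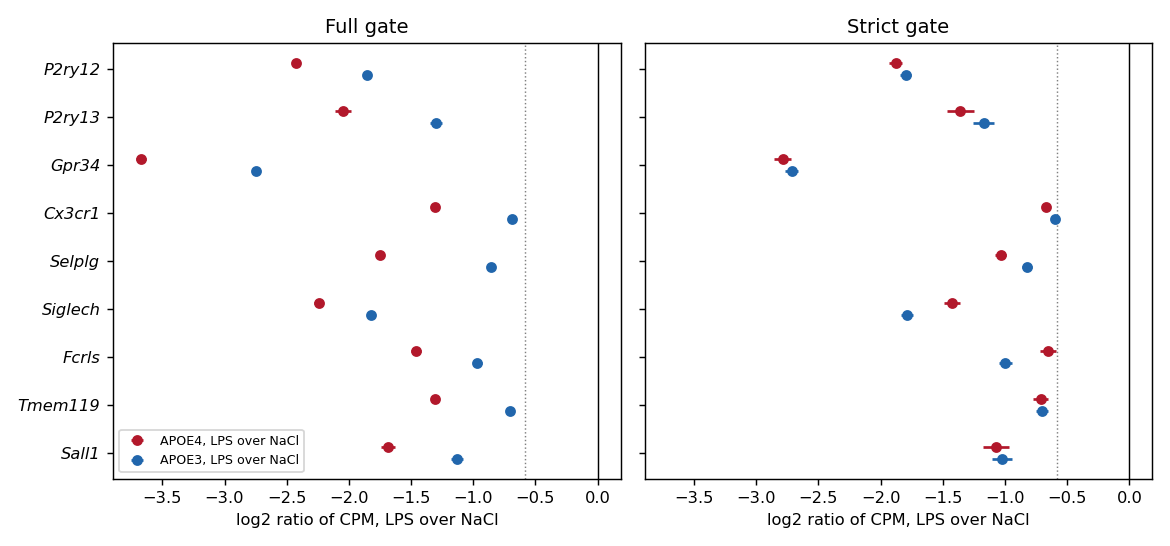
Log2 ratio of CPM, LPS over NaCl, for each gene in APOE4 (red) and APOE3 (blue), with 95% counting intervals and the 1.5-fold limit as a dotted line, in the full gate (left) and the strict gate (right). In the full gate the APOE4 ratio is the lower one for all 9 genes, by 0.42 to 0.92, and in the strict gate the genotypes lie within 0.36 of each other, with Siglech and Fcrls lower in APOE3.

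These folds are shares of a cell's RNA, and counted per cell the picture in APOE3 was different. Gated APOE3 LPS cells held 45.3 UMIs of the 9 genes per cell, against 56.9 in APOE3 NaCl, while their median total was 7737 UMIs against 4408. A gene with the same CPM in both libraries would therefore be higher per cell in APOE3 LPS. Per cell 3 of the 9 genes were at least 1.5-fold lower, and the share of all genes that much lower per cell was not computed. P2ry12 had 3.69 UMIs per cell in APOE3 LPS and 7.68 in APOE3 NaCl, Gpr34 had 1.73 in APOE3 LPS and 6.71 in APOE3 NaCl, and Siglech had 2.57 in APOE3 LPS and 5.24 in APOE3 NaCl. Cx3cr1 was slightly higher per cell, at 19.8 UMIs in APOE3 LPS and 18.4 in APOE3 NaCl, and so was Tmem119, at 4.57 UMIs in APOE3 LPS and 4.28 in APOE3 NaCl. In APOE4, where LPS cells were the shallower ones, all 9 genes were lower per cell, and the sum was 14.2 UMIs in APOE4 LPS, against 60.9 in APOE4 NaCl. UMIs per cell follow sequencing depth as well as RNA content, and the libraries differed in depth, so fewer molecules per cell and shallower reading of a cell cannot be told apart.

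The proportions among the 9 genes differed as well. Of their summed UMIs, Gpr34 made up 3.96% in APOE4 LPS and 3.83% in APOE3 LPS, against 14.3% in APOE4 NaCl and 11.8% in APOE3 NaCl. P2ry12 made up 9.80% in APOE4 LPS and 8.13% in APOE3 LPS, against 14.9% in APOE4 NaCl and 13.5% in APOE3 NaCl. Cx3cr1, the gene with the smallest fold in APOE3, took a larger share with LPS: 42.7% in APOE4 LPS and 43.6% in APOE3 LPS, against 30.1% in APOE4 NaCl and 32.3% in APOE3 NaCl. Strict cells gave 40.9% and 43.5% for Cx3cr1 in the LPS libraries, against 29.4% and 31.4% in the NaCl libraries of APOE4 and APOE3, so the larger share was present in both gates.

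Between genotypes without LPS, 0 of the 9 genes differed by 1.5-fold, beside 1.32% of all genes that were lower and 1.68% that were higher in APOE4 NaCl than in APOE3 NaCl. The median log2 ratio of the 9 was -0.02, beside -0.03 over all genes. Gpr34 was 1.27-fold higher (1.25 to 1.29) and P2ry12 1.16-fold higher (1.14 to 1.18) in APOE4 NaCl, and strict cells gave 1.21-fold (1.17 to 1.25) and 1.16-fold (1.12 to 1.19). P2ry13 was 1.08-fold higher (1.04 to 1.12), and its strict interval (0.98 to 1.12) included no difference. Sall1 was 1.07-fold lower (1.03 to 1.10), and 1.15-fold lower (1.08 to 1.24) in strict cells. In strict cells Cx3cr1 was 1.05-fold lower (1.03 to 1.08). Cx3cr1 had a fold of 0.974 (0.964 to 0.985), Selplg had a fold of 1.03 (1.02 to 1.05), and for Siglech, Fcrls and Tmem119 the interval included 1. In strict cells these last genes were lower in APOE4 NaCl by 1.06-fold (1.02 to 1.10) for Siglech, 1.07-fold (1.03 to 1.12) for Fcrls and 1.06-fold (1.01 to 1.10) for Tmem119, and the interval of Selplg included 1. Whether any of these gaps exceeds the spread between mice cannot be read from 1 library per genotype.

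With LPS, 5 of the 9 genes were at least 1.5-fold lower in APOE4 than in APOE3, beside 3.89% of all genes that were lower and 7.05% that were higher. These were Selplg (1.80-fold, 1.77 to 1.83), Cx3cr1 (1.58-fold), Sall1 (1.57-fold), P2ry13 (1.56-fold) and Tmem119 (1.54-fold). The median of the 9 was -0.62 on the log2 scale, beside 0.03 over all genes. In the strict gate 0 of the 9 were that much lower, beside 2.73% of all genes, and the median was -0.09. There 5 genes were lower and 4 higher in APOE4 LPS. The lower ones were Sall1 (1.19-fold, 1.12 to 1.27), Selplg (1.16-fold, 1.13 to 1.19), Cx3cr1 (1.11-fold, 1.09 to 1.12), P2ry13 (1.09-fold, 1.02 to 1.16) and Tmem119 (1.06-fold, 1.03 to 1.10). Siglech was 1.21-fold higher (1.17 to 1.26), Fcrls 1.18-fold higher (1.14 to 1.22), Gpr34 1.15-fold higher (1.10 to 1.21) and P2ry12 1.09-fold higher (1.05 to 1.13). Leaving out only the barcodes with markers of another type, with no higher limit on gate genes or depth, gave 5 of 9 and a median of -0.60. In that gate the astrocyte markers still summed to 331 CPM in APOE4 LPS, against 82.4 in APOE3 LPS, and neutrophil markers to 147 CPM in APOE4 LPS, against 18.1 in APOE3 LPS. The 5 calls between the LPS libraries thus depended on which barcodes were counted. They depended on the scaling too: with the full gate unchanged they numbered 0 per gate-gene UMI and 9 per cell. After each cell was thinned to 1000 UMIs they numbered 8. Shares over all genes were computed for the full and strict gates only, so these counts have none beside them. Counts per cell also follow depth, at a median of 2025.5 UMIs per gated cell in APOE4 LPS and 7737 in APOE3 LPS. Which cells the shallow APOE4 LPS barcodes hold was not tested.

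The difference of the LPS log2 ratio, APOE4 minus APOE3, was below 0 for all 9 genes in the full gate, from -0.42 (-0.47 to -0.37) for Siglech to -0.92 (-0.97 to -0.87) for Gpr34. In strict cells it was -0.21 (-0.27 to -0.15) for Selplg, -0.19 (-0.32 to -0.05) for P2ry13, -0.08 (-0.15 to -0.01) for P2ry12 and -0.07 (-0.11 to -0.03) for Cx3cr1. It was above 0 for Siglech, at 0.36 (0.28 to 0.44), and Fcrls, at 0.34 (0.26 to 0.43). The intervals of Gpr34, Tmem119 and Sall1 included 0.

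Within the APOE4 LPS library the level of the genes differed with the depth of the cell. APOE4 LPS cells with 1000 to 2000 UMIs, 4712 of its 9524 gated cells, held 728 CPM of Cx3cr1, against 1060 in cells with 2000 to 4000 UMIs, 1918 in cells with 4000 to 8000 and 1507 above that. In APOE3 LPS the same bins held 1728, 2276, 2583 and 2039 CPM, with 151 cells in the shallowest. Siglech followed the same course in APOE4 LPS, with 150, 203, 350 and 188 CPM, and at 4000 to 8000 UMIs it met the APOE3 LPS value of 353. Among cells of 4000 to 8000 UMIs Gpr34 held 221 CPM in APOE4 LPS and 245 in APOE3 LPS, against 1760 in APOE4 NaCl and 1374 in APOE3 NaCl. In all 4 depth bins both LPS libraries lay below both NaCl libraries for each of these genes. The bins match depth only roughly, since the deepest has no upper limit and the libraries spread their cells differently over the bins. The part of depth in the gap between treatments was not tested.

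**Figure D3:**
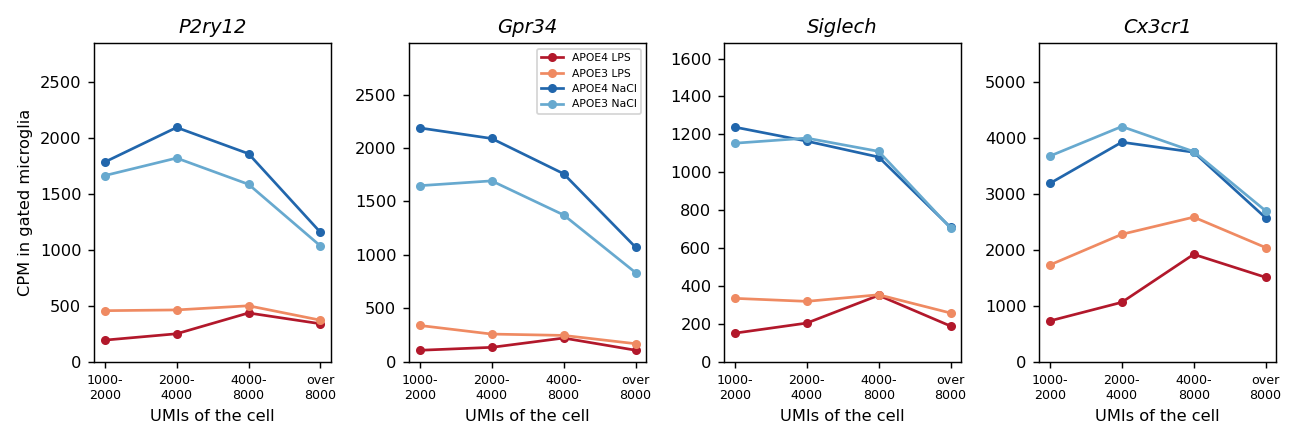
CPM of P2ry12, Gpr34, Siglech and Cx3cr1 in gated microglia of 4 bins of UMIs per cell, 1 line per library. In each bin the LPS lines lie below the NaCl lines, and the APOE4 LPS line approaches the APOE3 LPS line between 4000 and 8000 UMIs, where P2ry12 is at 435 and 500 CPM.

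To compare shares of cells, every gated cell was thinned to 1000 UMIs. A P2ry12 UMI was then found in 20.6% of APOE4 LPS cells (19.8 to 21.5) and 34.5% of APOE3 LPS cells (33.3 to 35.8), against 78.1% in APOE4 NaCl (76.6 to 79.4) and 73.5% in APOE3 NaCl (72.1 to 74.9). Before thinning the share was 44.1% in APOE4 LPS and 86.7% in APOE3 LPS, against 96.7% in APOE4 NaCl and 96.3% in APOE3 NaCl. Free RNA gives UMIs to cells that do not express a gene. Astrocyte-marked cells outside the gate had median depths of 2666 UMIs in APOE4 LPS and 3774 in APOE3 LPS, against 3735 in APOE4 NaCl and 3369 in APOE3 NaCl. Their thinned P2ry12 shares were 3.03% in APOE4 LPS and 1.76% in APOE3 LPS, against 1.71% in APOE4 NaCl and 2.32% in APOE3 NaCl. Gpr34 was found in 10.8% of APOE4 LPS cells and 17.6% of APOE3 LPS cells, against 76.2% in APOE4 NaCl and 69.3% in APOE3 NaCl, where astrocyte-marked cells gave at most 0.758%. Cx3cr1 was still found in most LPS cells, 53.2% in APOE4 LPS and 82.6% in APOE3 LPS, against 91.3% in APOE4 NaCl and 92.2% in APOE3 NaCl. Its share in astrocyte-marked cells was 6.16% in APOE4 LPS, above the 1.42% in APOE3 LPS and the 1.299% and 1.72% in the NaCl libraries of APOE4 and APOE3. In strict cells the thinned shares of the LPS libraries differed by gene. P2ry12 was found in 35.6% of APOE4 LPS cells and 37.3% of APOE3 LPS cells, and Gpr34 in 21.3% of APOE4 LPS cells and 20.01% of APOE3 LPS cells. Selplg was found in 51.4% of APOE4 LPS cells and 60.8% of APOE3 LPS cells, Cx3cr1 in 81.4% and 89.3% of those cells, and Siglech in 34.4% and 27.2%.

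**Figure D4:**
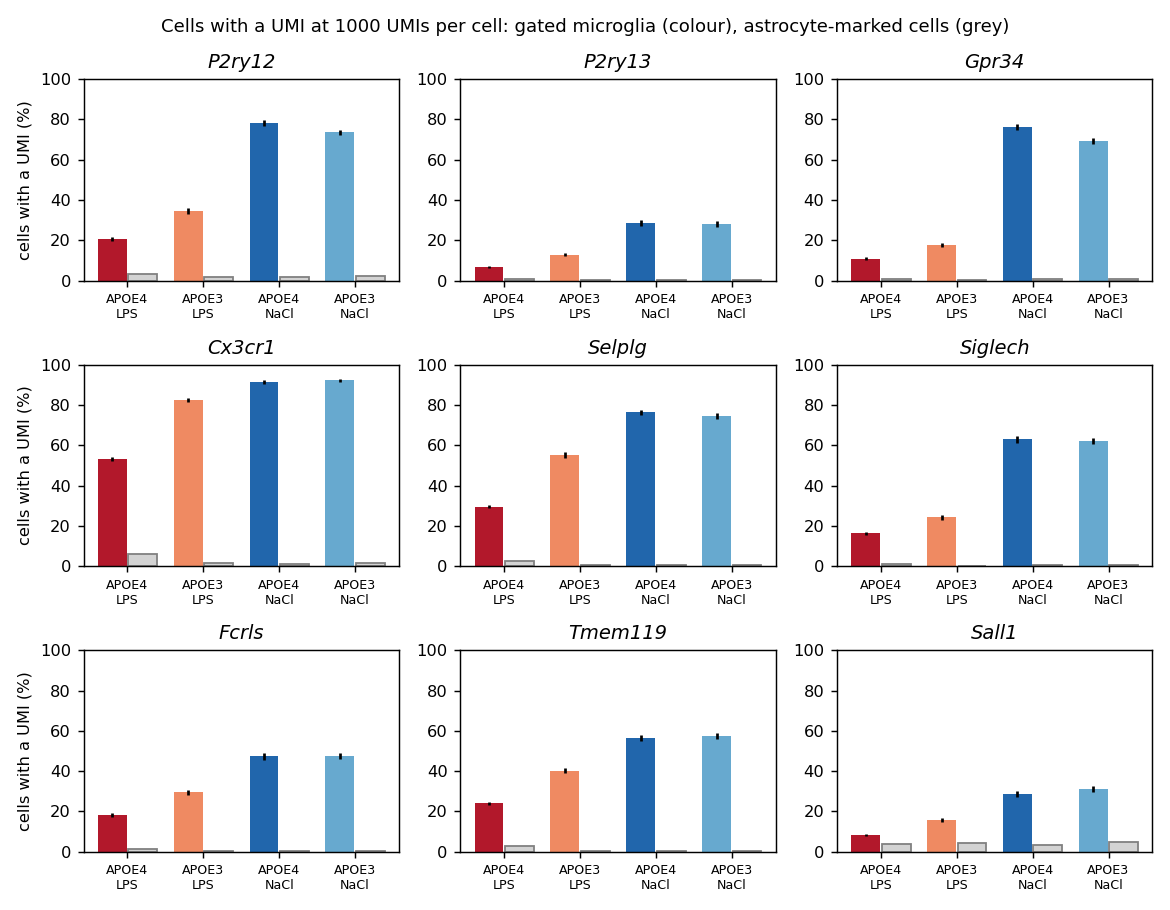
Share of cells with at least 1 UMI of each gene after thinning to 1000 UMIs, in gated microglia (coloured bars, exact 95% binomial intervals) and in astrocyte-marked cells outside the gate (grey bars). The gene most often found in LPS microglia was Cx3cr1 and the gene with the widest gap to the NaCl libraries was Gpr34, while grey bars stay at or below 6.16%.

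The number of the 9 genes seen in a single cell was lower with LPS. Thinned cells held a mean of 2.78 UMIs of the 9 genes in APOE4 LPS and 5.43 in APOE3 LPS, against 12.4 in APOE4 NaCl and 11.99 in APOE3 NaCl. The median cell showed 2 of the 9 genes in APOE4 LPS and 3 in APOE3 LPS, against 6 in APOE4 NaCl and 6 in APOE3 NaCl. At least 5 genes were seen in 7.34% of APOE4 LPS cells and 18.4% of APOE3 LPS cells, against 75.2% in APOE4 NaCl and 73.4% in APOE3 NaCl. None was seen in 19.3% of APOE4 LPS cells and 4.25% of APOE3 LPS cells, against 0.928% in APOE4 NaCl and 0.718% in APOE3 NaCl. In strict cells at least 5 were seen in 25.1% in APOE4 LPS and 21.9% in APOE3 LPS, against 80.5% in APOE4 NaCl and 81.5% in APOE3 NaCl, and none in 5.13% and 0.824% in the LPS libraries, against 0.0874% and 0% in the NaCl libraries of APOE4 and APOE3. The 0 of 989 strict APOE3 NaCl cells allows a share of up to 0.303%. APOE4 LPS strict cells were spread more widely than APOE3 LPS strict cells, with 13.7% against 6.68% showing 1 gene. Over the 36 pairs of genes, the correlation of thinned UMIs across gated cells had a median of 0.13 in APOE4 LPS and 0.06 in APOE3 LPS, against 0.09 in APOE4 NaCl and 0.08 in APOE3 NaCl. These cells share a library and their counts are sparse, so the values are descriptions of weak relations.

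**Figure D5:**
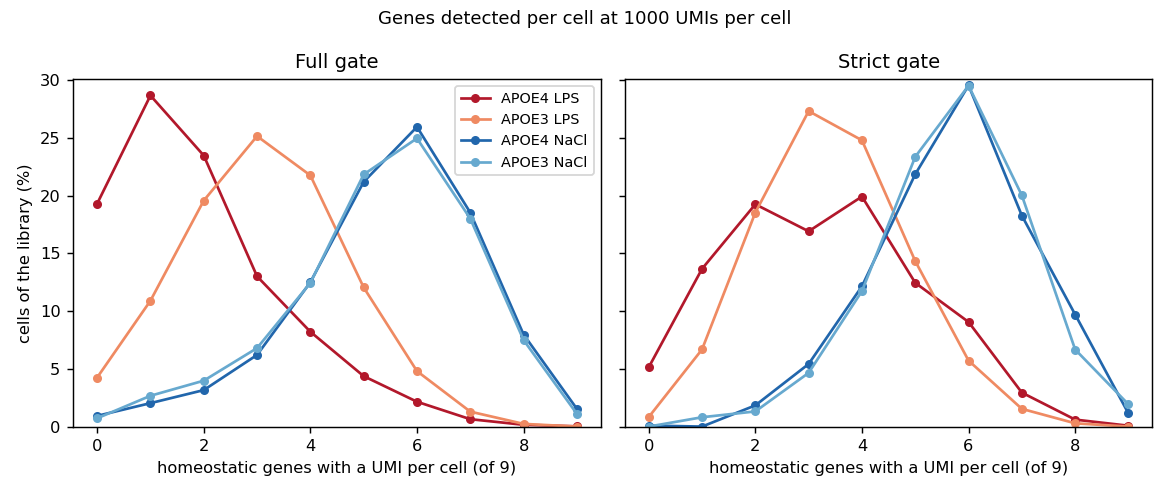
Share of cells by the number of the 9 genes with a UMI after thinning to 1000 UMIs, in the full gate (left) and the strict gate (right), 1 line per library. The NaCl lines peak at 6 genes in both gates, the APOE3 LPS line peaks at 3, and the APOE4 LPS line peaks at 1 in the full gate and at 4 in the strict gate.

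Cells were also divided by whether they held a UMI of Il1b, the interleukin-1 beta gene that endotoxin induces. In strict thinned cells the 9 genes summed to 5270 CPM with an Il1b UMI and 5813 without one in APOE4 LPS, and to 5593 and 6283 in APOE3 LPS. In APOE4 NaCl they summed to 9804 with and 13280 without, and in APOE3 NaCl to 9535 and 12910. Cells with an Il1b UMI were 19.0% of strict cells in APOE4 LPS and 27.1% in APOE3 LPS, against 4.46% in APOE4 NaCl and 4.35% in APOE3 NaCl. The 9 genes were lower with LPS also in cells in which no Il1b UMI was seen. A cell that expresses Il1b can lack a UMI of it in such sparse counts. The split therefore does not separate cells with Il1b expression from cells without it. In the full gate APOE4 LPS was the exception to the order, with 2868 CPM in cells with an Il1b UMI and 2757 in cells without.

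Almost all UMIs of 8 of the 9 genes came from the gate. Between 93.4% and 98.6% of a library's UMIs of these genes were in gated cells, against 79.1 to 85.2% for Sall1. In astrocyte-marked cells Sall1 had 44.3 CPM in APOE4 LPS and 43.5 in APOE3 LPS, against 39.5 in APOE4 NaCl and 45.8 in APOE3 NaCl, a level close to the same in all 4 libraries. That is 40.8% and 25.6% of its level in gated cells of APOE4 LPS and APOE3 LPS, against 11.3% and 12.3% in APOE4 NaCl and APOE3 NaCl. For the other 8 genes the level in astrocyte-marked cells was 2.73 to 7.02% of the gated level in APOE4 LPS and 0.53 to 4.35% in the other libraries. Oligodendrocyte-marked cells held Sall1 too, at 27.8 CPM in APOE4 LPS and 22.2 in APOE3 LPS, against 44.3 in APOE4 NaCl and 44.6 in APOE3 NaCl, and endothelial-marked cells held 1.42 to 6.46 CPM. Sall1 RNA in the suspension was thus the least restricted to microglia of the 9.

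In macrophage-marked cells Fcrls was near its level in the whole gate, and the other 8 genes were lower. Gated cells with at least 3 markers of border-associated macrophages, the macrophages of the meninges and perivascular spaces, numbered 184 in APOE4 LPS, 191 for APOE3 LPS, 105 for APOE4 NaCl and 130 for APOE3 NaCl. They held 271 CPM of Fcrls in APOE4 LPS and 305 in APOE3 LPS, against 804 in APOE4 NaCl and 856 in APOE3 NaCl, beside 244 and 349 CPM in the whole gate of the LPS libraries and 672 and 682 in that of the NaCl libraries. The other 8 genes had 5.68 to 55.7% of their CPM in the whole gate. Sall1 was low in them, at 21.6 CPM in APOE4 LPS and 19.7 in APOE3 LPS, against 46.6 in APOE4 NaCl and 21.2 in APOE3 NaCl, and so was Tmem119, at 71.2 and 81.6 CPM in the LPS libraries, against 110 and 123 in the NaCl libraries of APOE4 and APOE3. Gpr34 was lower with LPS in these cells as well, with 28.1 CPM in APOE4 LPS and 39.3 in APOE3 LPS, against 343 in APOE4 NaCl and 285 in APOE3 NaCl. Selplg was also found outside the gate: 29 neutrophil-marked cells held 841 CPM in APOE4 LPS and 69 such cells held 1294 CPM in APOE3 LPS, and T or NK cell-marked cells held 361 to 598 CPM over the 4 libraries. Neutrophil-marked cells inside the gate held 402 CPM of Selplg in APOE4 LPS and 848 in APOE3 LPS. They were 1.14% of gated cells in APOE4 LPS and 0.306% in APOE3 LPS, and 0 in the NaCl libraries, which allows up to 0.087% in APOE4 NaCl and 0.077% in APOE3 NaCl.

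Of 20 other homeostatic microglial genes, 19 were at least 1.5-fold lower with LPS in APOE4 and 14 in APOE3, and 0 were higher, with median log2 ratios of -1.31 and -0.77. Over all genes 14.7% were lower and 15.1% higher in APOE4, and 10.6% lower and 8.4% higher in APOE3. In strict cells 15 were lower in APOE4 and 15 in APOE3, beside 15.7% and 13.7% of all genes. Slc2a5, the fructose transporter GLUT5, had 29.1 CPM in APOE4 LPS and 41.3 in APOE3 LPS, against 169 in APOE4 NaCl and 153 in APOE3 NaCl (log2 ratios -2.50 and -1.865 in APOE4 and APOE3). Tgfbr1, the type 1 receptor for TGF-beta, had 360 CPM in APOE4 LPS and 586 in APOE3 LPS, against 1482 in APOE4 NaCl and 1417 in APOE3 NaCl. Trem2, a lipid-sensing receptor linked to Alzheimer's disease risk, had 413 CPM in APOE4 LPS and 732 in APOE3 LPS, against 1785 in APOE4 NaCl and 1543 in APOE3 NaCl. Pmepa1, a TGF-beta target that dampens the pathway, had log2 ratios of -1.08 in APOE4 and -1.08 in APOE3. Gpr165, an orphan receptor, held at most 5.32 CPM in any library, with ratios of -2.04 and -1.58. The gene of the list that was not lower in APOE4 was Cd34, at -0.27 in APOE4 and 0.57 in APOE3.

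Of 12 microglial transcription factors, 9 were lower with LPS in APOE4 and 4 in APOE3, beside 14.7% and 10.6% of all genes. In strict cells 4 were lower in each genotype, beside 15.7% of all genes in APOE4 and 13.7% in APOE3. Mef2c, a MEF2 factor, had 544 CPM in APOE4 LPS and 800 in APOE3 LPS, against 1704 in APOE4 NaCl and 1617 in APOE3 NaCl. Maf had log2 ratios of -1.24 in APOE4 and -1.40 in APOE3, and Cebpa of -1.55 and -1.24. Batf3 was lower in both genotypes (-0.97 in APOE4 and -0.88 in APOE3), and Mef2a was at -1.11 in APOE4 and -0.50 in APOE3. In strict cells Batf3 was at -0.35 in APOE4, within 1.5-fold, and at -1.09 in APOE3, and Mef2a at -0.63 and -0.37. Spi1, which encodes PU.1, had 274 CPM in APOE4 LPS and 303 in APOE3 LPS, against 304 in APOE4 NaCl and 285 in APOE3 NaCl. The lineage factor Spi1 was thus within 1.5-fold while Sall1 was not.

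In the TGF-beta pathway, 7 of 13 genes were lower and 1 higher with LPS in APOE4, and 3 were lower and 0 higher in APOE3. Over all genes 14.7% were lower and 15.1% higher in APOE4, and 10.6% lower and 8.4% higher in APOE3. Strict cells gave 2 of 13 lower in APOE4, beside 15.7% of all genes, and 4 of 13 in APOE3, beside 13.7%. Beside Tgfbr1, the inhibitor Smad7 was lower in both genotypes (log2 ratios -1.14 and -0.73). The receptor gene Tgfbr2 (-1.14) and the signal transducer Smad3 (-0.9999) were lower in APOE4 only by this limit in the full gate. In strict cells neither passed it in either genotype, with Tgfbr2 at -0.51 in APOE4 and -0.27 in APOE3, and Smad3 at -0.47 and -0.09. The ligand Tgfb1 was at -0.94 in APOE4 and -0.63 in APOE3, and at -0.55 and -0.65 in strict cells. Itgb8, a subunit of the integrin that frees TGF-beta, was at 0.22 in APOE4 and -0.43 in APOE3, and at 0.39 and -1.11 in strict cells. The gene that was higher in APOE4 was the ligand Tgfb2 (0.69), and it was at 0.13 in strict cells.

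Other genes of the receptors' pathways did not follow the 9 as a group. Of 15 purinergic genes, 2 were lower and 4 higher with LPS in APOE4, and 3 lower and 3 higher in APOE3, with median log2 ratios of 0.07 and 0.17. Over all genes 14.7% were lower and 15.1% higher in APOE4, and 10.6% lower and 8.4% higher in APOE3. With 15 genes listed, these counts differ from those shares by few genes, so no excess is read from them. In strict cells 1 of 10 measured was lower and 1 higher in APOE4, and 1 of 12 lower and 3 higher in APOE3. In that gate 15.7% of all genes were lower in APOE4 and 13.7% in APOE3, and the share of higher genes was not computed. Entpd1, the ectonucleotidase CD39 that makes and removes ADP, had 180 CPM in APOE4 LPS and 316 in APOE3 LPS, against 588 in APOE4 NaCl and 568 in APOE3 NaCl. P2rx7, an ATP-gated channel, was at -0.92 in APOE4 and -0.64 in APOE3, whereas the UTP receptor gene P2ry2 was higher (1.22 in APOE4 and 1.499 in APOE3), at no more than 3.37 CPM in any library. In strict cells P2rx7 was within 1.5-fold, at -0.56 in APOE4 and -0.40 in APOE3, and P2ry2 was at 0.98 and 1.91. Also among the low genes, P2ry14 was at 0.87 in APOE4 and 0.23 in APOE3, Adora2b at 0.28 in APOE4 and -0.79 in APOE3, and Ada at 0.75 in APOE4 and 0.71 in APOE3.

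Of 3 genes of the fractalkine axis, Cx3cl1, the ligand of Cx3cr1, was higher in both genotypes (0.65 in APOE4 and 0.81 in APOE3) at no more than 5.06 CPM, while the sheddases Adam10 and Adam17 were within 1.5-fold. In strict cells Cx3cl1 was on the other side of 0, at -0.31 in APOE4 and -0.12 in APOE3. Of 11 genes of the Siglec family and its adaptors, 3 were lower and 2 higher in APOE4, and 2 lower and 3 higher in APOE3. The shares over all genes were 14.7% lower and 15.1% higher in APOE4, and 10.6% lower and 8.4% higher in APOE3. Siglec1, which endotoxin and interferon induce on macrophages, was higher, with 11.6 CPM in APOE4 LPS and 14.2 in APOE3 LPS, against 1.76 in APOE4 NaCl and 2.73 in APOE3 NaCl. In strict cells 2 were lower and 2 higher in each genotype, where 15.7% of all genes were lower in APOE4 and 13.7% in APOE3. The strict share of higher genes over all genes was not computed. Siglecf was at -1.001 in APOE4 and 0.11 in APOE3, and at -0.06 in strict APOE4 cells. Siglece was also higher (1.02 in APOE4 and 0.77 in APOE3), and Siglecg (-1.26 and -0.92) and Cd33 (-0.81 and -0.84) were lower, so members of the family of Siglech lay in both directions. Of the lysophosphatidylserine genes, 3 of 5 were measured in APOE4 and 4 in APOE3. Pla1a, a phospholipase that makes the ligand of Gpr34, was at 1.43 in APOE4 and 0.58 in APOE3, at no more than 5.09 CPM. Abhd12, which degrades that ligand, was at -0.63 in APOE4 and -0.20 in APOE3. In strict cells Pla1a was at 0.91 in APOE4 and 0.17 in APOE3, and Abhd12 at -0.22 and -0.17. Abhd16a was at -0.09 in APOE4 and -0.19 in APOE3, and P2ry10 was measured in APOE3 (0.16).

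Most of the listed genes that endotoxin induces differed in the other direction. Of 12 LPS activation genes, 8 were higher by 1.5-fold or more in APOE4 and 11 in APOE3, and 0 were lower. Among all genes 15.1% were higher and 14.7% lower in APOE4, and 8.4% higher and 10.6% lower in APOE3. In strict cells 8 were higher in APOE4 and 12 in APOE3, and the share of all genes that much higher was not computed for that gate. The strict median log2 ratios of the list were 1.43 in APOE4 and 1.46 in APOE3, beside -0.07 and -0.08 over all genes. Tspo, the mitochondrial translocator protein used to image glial activation, had 421 CPM in APOE4 LPS and 516 in APOE3 LPS, against 99.8 in APOE4 NaCl and 113 in APOE3 NaCl. Il1b had 311 CPM in APOE4 LPS and 702 in APOE3 LPS, against 125 in APOE4 NaCl and 99.1 in APOE3 NaCl. Il1rn, the interleukin-1 receptor antagonist, had 22.5 CPM in APOE4 LPS and 8.60 in APOE3 LPS, against 0.110 in APOE4 NaCl and 0.347 in APOE3 NaCl. Its NaCl values rest on 2 UMIs in APOE4 NaCl and 7 in APOE3 NaCl. Sod2 (2.67 in APOE4 and 1.46 in APOE3) and Ccl2 (1.78 and 1.64) were higher as well. Those within 1.5-fold in APOE4 were Il1a (0.16), Ccl3 (0.08), Icam1 (-0.08) and Ccl4 (-0.35), and in APOE3 only Ccl4 was (0.51). In strict APOE4 cells Ccl3 was at -0.33 and Ccl4 at -0.29. Markers of neutrophils, which also carry several of these RNAs, summed in the full gate to 237 CPM in APOE4 LPS and 299 in APOE3 LPS, against 2.91 in APOE4 NaCl and 2.13 in APOE3 NaCl, with Cxcr2 at 0 in at least 1 library. In strict cells they summed to 74.6 CPM in APOE4 LPS and 17.5 in APOE3 LPS, against 2.48 in APOE4 NaCl and 0.954 in APOE3 NaCl. Their part in the activation values was not tested.

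Among 727 genes found mainly in the microglia gate (at least 400 UMIs there in all, and 5 times the CPM of astrocyte-, oligodendrocyte- and endothelial-marked cells), those whose pattern over the 4 libraries lay closest to the median of the 9 were Gm32591, Cdh23, Gm15523, Rtn4rl1, Ebf3, Susd3, Gm37168 and Smap2. Likeness was the Euclidean distance over the 4 log2 CPM values of the full gate after each gene's own mean was taken off, and it was 0.08 for Gm32591 and 0.14 for Smap2, beside 0.06 for Sall1 and 1.79 for Gpr34 among the 9. Cdh23, a cadherin, had 41.6 CPM in APOE4 LPS and 62.4 in APOE3 LPS, against 137 in APOE4 NaCl and 142 in APOE3 NaCl. Smap2, a GTPase-activating protein, had 190 CPM in APOE4 LPS and 290 in APOE3 LPS, against 590 in APOE4 NaCl and 588 in APOE3 NaCl. With 4 libraries, 1 per group, the likeness describes these libraries only.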

How the data were processed

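The suspensions were run with 10x Genomics 3′ reagents on an Illumina NovaSeq, per the labels. The deposited matrices are whole-number UMI counts for each gene and barcode, and the authors' pipeline was Cell Ranger 7.0.1 by the file headers (7.0, with the mm10 build, by the submitters' processing notes). Whether introns or strand entered the counting is not given in the sources used here. Groups were taken from the sample labels. Quality control asked for 500 genes, 1000 UMIs and no more than 20% mitochondrial UMIs, and no doublet caller was run. Barcodes with 3 or more detected markers of another of 12 cell types were counted and left out as an alternative. UMIs were summed per library over gated cells and scaled to CPM, with Poisson 95% intervals, and ratios have exact conditional binomial (Clopper-Pearson) intervals. Log2 values are of CPM + 1, which understates the differences of low genes, and a gene counted as lower or higher at 1.5-fold. Shares have exact binomial intervals, and a count of 0 allows up to 3 counts. The interval of the LPS difference is approximate on the log scale. From each gene list the up to 4 measured genes with the largest absolute log2 ratio in each genotype were named, with the 8 nearest genes by the distance stated. Cd34, Spi1, Tgfb2, Il1a, Ccl3, Ccl4 and Icam1 were named after their values were seen. The 9 members and the 9 other lists were chosen with earlier results of these data known, as were the markers. Of these lists, 1 is not reported here. The calculation was tested on simulated data. Python 3.11.15, numpy 2.4.6, scipy 1.17.1, pandas 2.3.3 and matplotlib 3.10.9 were used.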

Additional observations from a re-analysis of the deposited data

Results flagged for a closer look

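For 4 of the 9 genes the APOE4 library was the lower one with LPS and the higher one with NaCl in the full gate. The difference of the LPS log2 ratio, APOE4 minus APOE3, was -0.57 for P2ry12, -0.74 for P2ry13, -0.92 for Gpr34 and -0.89 for Selplg. With 1 library per group the difference was not tested. In the strict gate the same differences were -0.08 for P2ry12, -0.19 for P2ry13, -0.07 for Gpr34 and -0.21 for Selplg.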

How the results depend on the processing

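No paired analysis was possible because each group is 1 library and no result comes from a test. Values below are median log2 ratios of the 9 genes unless said otherwise. Each of the 9 was at least 1.5-fold lower in APOE4 LPS than in APOE4 NaCl under all 15 alternatives. In APOE3 this held but for UMIs per cell, where 3 of 9 were that much lower and Cx3cr1 and Tmem119 were higher (0.1035 and 0.09328), and for Cx3cr1 after centring on the median gene (-0.58). For APOE4 LPS over APOE4 NaCl (-1.75) the median was -1.695 with gate genes at 1% of UMIs, -1.686 with 4 of 4 detected, -1.694 without Ctss, -1.673 from 2000 UMIs, -1.796 from 500 UMIs, -1.704 without barcodes with other markers, -1.067 in the strict gate, -2.018 thinned, -1.71 centred, -1.627 without mitochondrial and ribosomal genes, -2.039 per cell and -1.654 per gate-gene UMI. For APOE3 LPS over APOE3 NaCl (-1.127) it was -1.018 in the strict gate, -1.015 centred, -1.038 without mitochondrial and ribosomal genes, -0.3367 per cell and -1.569 per gate-gene UMI. For APOE4 LPS over APOE3 LPS (-0.6237) it was -0.5361 at 1%, -0.5596 with 4 of 4, -0.5694 without Ctss, -0.5338 from 2000 UMIs, -0.6586 from 500 UMIs, -0.08736 in the strict gate, -0.8545 thinned, -0.5881 without mitochondrial and ribosomal genes, -0.58 with a pseudocount of 10, -1.675 per cell and -0.1923 per gate-gene UMI. The 5 genes lower there numbered 1 at 1%, with 4 of 4, without Ctss and from 2000 UMIs, 0 in the strict gate and per gate-gene UMI, 8 thinned and 9 per cell. Shares over all genes were computed for the full and strict gates only, and counts per cell follow depth as well. For APOE4 NaCl over APOE3 NaCl (-0.01556) it was -0.07525 in the strict gate, 0.05713 thinned, 0.01806 centred, 0.01642 per cell and -0.1194 per gate-gene UMI. The median difference of the LPS log2 ratio, APOE4 minus APOE3 (-0.6046), was -0.4851 at 1%, -0.5347 with 4 of 4, -0.5472 without Ctss, -0.4988 from 2000 UMIs, -0.06917 in the strict gate, -1.008 thinned, -0.676 centred, -1.688 per cell and -0.06937 per gate-gene UMI. The cause of these shifts was not tested. The strict gate, UMIs per cell, UMIs per gate-gene UMI and leaving out macrophage-marked barcodes were chosen after seeing the data.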
